A study of Mus musculus with 6 samples.

Results

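The genes studied here are 7 genes of mono-ADP-ribosylation that are linked to interferon: Parp8, Parp9, Parp10, Parp11, Parp12, Parp14 and Dtx3l. They were chosen by name, as the rows of the count table whose Ensembl identifiers carry these symbols, and each symbol matched 1 of the 55401 rows. All 7 had enough counts to be tested, among 19554 such genes. The libraries came from microglia, the resident macrophages of the brain, of 6-week-old untreated mice of the strains MRL/lpr and MRL/mpj, with 3 libraries per strain. MRL/lpr mice have the lpr mutation in Fas, the death receptor gene, and develop lupus, and MRL/mpj mice are the control strain with intact Fas on the same MRL background. The cells were selected with magnetic beads for CD11b, a surface protein that other myeloid cells also carry, so the selection itself does not separate microglia from those cells. The number of mice given for this experiment matches the number of libraries in each strain, but the labels do not say that each library is a separate mouse, and p-values measure the spread between these libraries. Fas itself was counted 461, 282 and 298 times for MRL/lpr and 426, 432 and 362 times for MRL/mpj (log2 fold change -0.06, adjusted p = 0.887). Its counts over the whole gene thus did not differ by the test, and the presence of the mutation was not tested. Xist had 8886 to 11319 counts in the MRL/lpr and 27 to 38 counts in the MRL/mpj libraries, while 4 Y chromosome genes summed to 8408 to 15046 counts in all 6 libraries. The study's methods describe female mice, and these genes differ from that description. Each MRL/lpr library held both Xist and Y chromosome counts, and the reason was not tested. The sex of the mice and the strain cannot be told apart.

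PARP proteins take ADP-ribose from NAD+ and attach it to proteins or nucleic acids. Parp8, Parp10, Parp11, Parp12 and Parp14 attach single ADP-ribose units, whereas Parp1 builds long chains. Parp9 has little activity alone and forms a complex with Dtx3l, a ubiquitin ligase of the Deltex family. Parp9 and Parp14 also carry macrodomains, modules that bind or remove ADP-ribose. Several of these genes are known as interferon-stimulated genes with roles in antiviral defence and in macrophage responses to interferon.

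In MRL/lpr microglia, 4 of the 7 genes were upregulated and none was downregulated, also at an unadjusted p under 0.05 or with DESeq2. Parp14 rose most, by 2.23-fold, followed by Parp10 at 1.73-fold, Parp9 at 1.65-fold and Parp12 at 1.41-fold. Dtx3l, Parp8 and Parp11 did not pass the test. A gene was called where its p-value, from the quasi-likelihood test of edgeR and adjusted over all genes tested by the Benjamini-Hochberg method, was under 0.05. By that rule 11.1% of all genes tested were higher in MRL/lpr microglia, and 9.06% were lower. Only Parp14 among the 7 also passed a log2 fold change of 1, as did 4.67% of all genes tested. The libraries of the strains did not overlap for the 4 upregulated genes, which was so for 39% of all genes tested. The median log2 fold change of the 7 genes was 0.49, against -0.01 over all genes tested. The 7 genes were chosen with earlier results of these data known, so the values over all genes are given for scale. Some markers of other cells were also called higher in the MRL/lpr libraries, 4 of 5 for T cells, 3 of 5 for NK cells and 2 of 5 for plasma cells. The summed level of each of these lists was at most 28.5 CPM (counts per 1000000 counts of the library, with TMM scaling). Larger sums in MRL/lpr libraries belonged to neutrophil (2 of 5 higher, 306 to 341 CPM) and endothelial markers (1 of 5 higher, 1338 to 1511 CPM). Monocyte markers (2 of 5 higher, 1 lower) summed to 72.0 to 79.8 CPM. Called lower were 4 of 5 choroid plexus and ependyma markers, 2 of 5 for neurons, and 1 of 5 each for astrocytes, border macrophages and oligodendrocytes. The part of these cells in the differences was not tested. In bulk libraries, fewer cells of a type and less RNA per cell cannot be told apart.

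**Figure D1:**
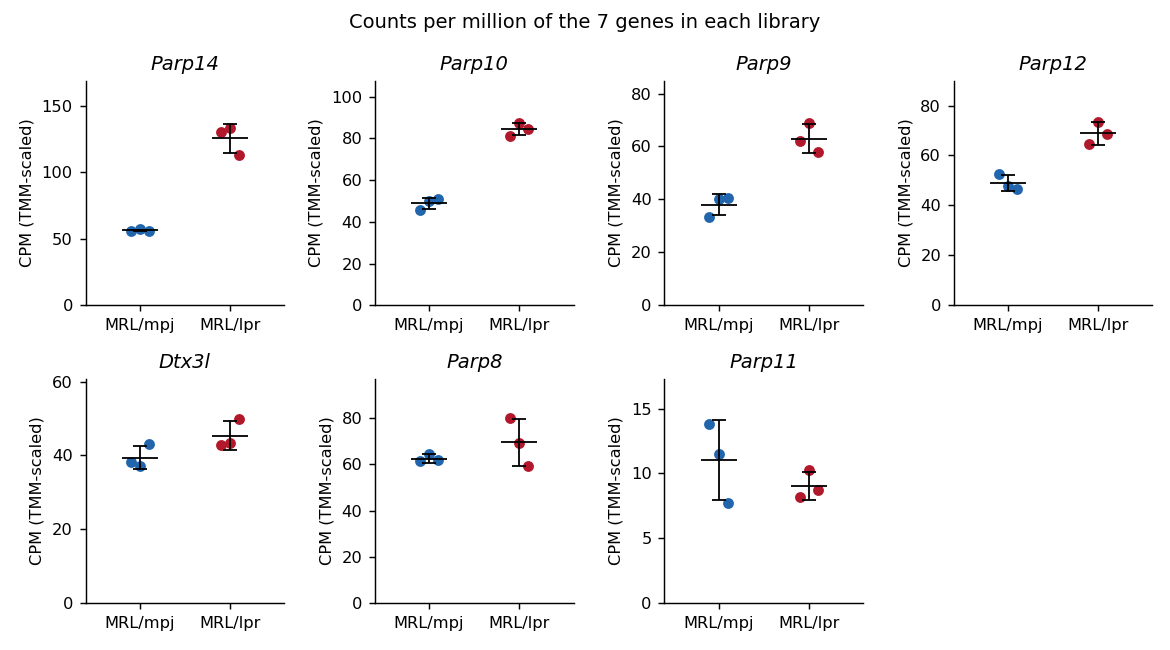
Normalized counts (CPM, scaled by TMM) of each of the 7 genes in the 3 MRL/mpj (blue) and 3 MRL/lpr (red) libraries, with each panel starting at 0. Horizontal lines give the mean and bars the SD. The strains are apart for Parp14, Parp10, Parp9 and Parp12 and overlap for Dtx3l, Parp8 and Parp11.

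The genes Parp14, Dtx3l and Parp9 lie side by side on chromosome 16 within a span of 139732 bases. Parp14 (ENSMUSG00000034422, GRCm38 chr16:35832874-35871544, minus strand) encodes the largest of these enzymes, a transferase with several macrodomains that is known as a partner of the transcription factor STAT6. The Parp14 counts of MRL/lpr replicates 1 to 3 were 6126, 6287 and 4735, and those of MRL/mpj replicates 1 to 3 were 2875, 2850 and 2909. The lowest MRL/lpr library was well above the highest MRL/mpj library. Its level was 126 ± 10.9 CPM (SD, n = 3) against 56.3 ± 0.625 CPM (SD, n = 3). The log2 fold change was 1.16 (standard error 0.08, 95% interval 0.97 to 1.34, adjusted p = 1.27e-05).

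Parp9 (ENSMUSG00000022906, chr16:35938470-35972605, plus strand) encodes the macrodomain partner of Dtx3l. The Parp9 counts of MRL/lpr replicates 1 to 3 were 2914, 3240 and 2418, and those of MRL/mpj replicates 1 to 3 were 1717, 2016 and 2100. The strains did not overlap, although MRL/lpr replicate 3 came close to the highest MRL/mpj library before scaling for depth. The level was 62.9 ± 5.54 CPM (SD, n = 3) against 38.0 ± 4.003 CPM (SD, n = 3), and the log2 fold change was 0.73 (standard error 0.11, 95% interval 0.49 to 0.96, adjusted p = 0.00114).

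Dtx3l (ENSMUSG00000049502, chr16:35926511-35939151, minus strand) encodes the ubiquitin ligase of the pair. The Dtx3l counts of MRL/lpr replicates 1 to 3 were 2008, 2047 and 2088, and those of MRL/mpj replicates 1 to 3 were 1958, 1851 and 2241. The highest count of all belonged to an MRL/mpj library, and the strains also overlapped after scaling. Its level was 45.4 ± 3.98 CPM (SD, n = 3) against 39.4 ± 3.23 CPM (SD, n = 3). The log2 fold change of 0.20 did not pass the test (95% interval -0.02 to 0.43, adjusted p = 0.199), and the interval covers a fold between 0.986 and 1.35.

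Parp9 and Dtx3l are arranged head to head. Their annotated ends share 682 bases at chr16:35938470-35939151, on opposite strands. The library kit keeps the strand of the RNA, but the strand setting of the counting is not given in the sources used here, so reads within the shared stretch cannot be assigned to either gene with certainty. The ratio of Dtx3l to Parp9 counts within each library does not depend on depth or scaling. It was 0.689, 0.632 and 0.864 for MRL/lpr and 1.14, 0.918 and 1.07 for MRL/mpj replicates 1 to 3. Each MRL/lpr ratio was under each MRL/mpj ratio. Counts do not allow for the unlike lengths of the genes. By the deposited FPKM values, which do, the ratio was under 1 in every library of both strains. It was 0.587, 0.537 and 0.735 for MRL/lpr and 0.972, 0.782 and 0.908 for MRL/mpj replicates 1 to 3. The mean ratio of counts was 0.728 ± 0.121 (SD, n = 3) against 1.04 ± 0.113 (SD, n = 3). The difference was -0.52 on the log2 scale (exact permutation test, two-sided, p = 0.1, the smallest value that 3 libraries against 3 allow).

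The ratio of Parp14 to Parp9, compared after the values were seen, moved the other way. It was 2.10, 1.94 and 1.96 for MRL/lpr and 1.67, 1.41 and 1.39 for MRL/mpj replicates 1 to 3, with no overlap. The difference was 0.43 on the log2 scale (exact permutation test, two-sided, p = 0.1, again the smallest possible). Kpna1, an importin gene that neighbours the 3 genes and was named after its values were seen, had a log2 fold change of 0.19 (adjusted p = 0.177 from edgeR).

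**Figure D2:**
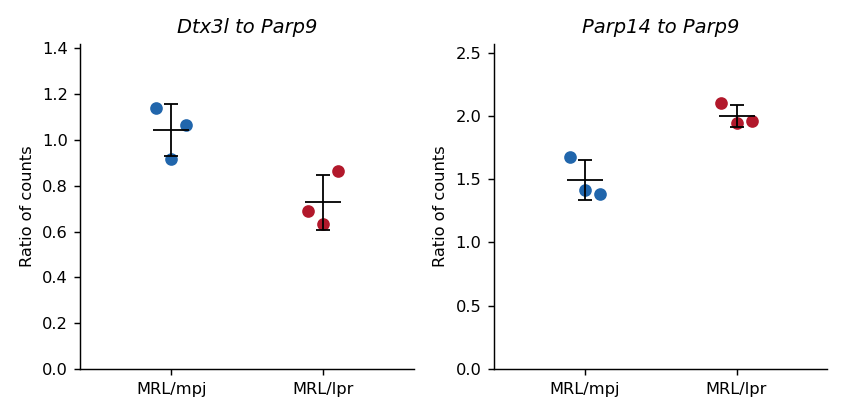
Ratio of counts within each library for Dtx3l to Parp9 (left) and Parp14 to Parp9 (right), in MRL/mpj (blue) and MRL/lpr (red) microglia. Lines give the mean of 3 libraries and bars the SD, and the axes start at 0. The Dtx3l to Parp9 ratio is lower in each MRL/lpr library than in any MRL/mpj library, and the Parp14 to Parp9 ratio is higher.

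Parp10 (ENSMUSG00000063268, chr15:76231174-76243441, minus strand) encodes a mono-ADP-ribosyltransferase first described as a binding partner of MYC. Counts of Parp10 in MRL/lpr replicates 1 to 3 were 3827, 4117 and 3538, and those in MRL/mpj replicates 1 to 3 were 2348, 2500 and 2643. These groups were far apart relative to the spread within each strain. Its level rose from 48.8 ± 2.75 CPM (SD, n = 3) to 84.5 ± 3.03 CPM (SD, n = 3), a log2 fold change of 0.79 (standard error 0.08, 95% interval 0.61 to 0.97, adjusted p = 0.000112). The annotated gene shares 1401 bases with Plec, the gene of a cytoskeletal linker on the same strand. Plec had a log2 fold change of 0.17 (adjusted p = 0.468).

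Parp12 and Parp11 encode transferases that carry WWE domains, modules that bind ADP-ribose. Parp12 (ENSMUSG00000038507, chr6:39086410-39118349, minus strand) is a zinc finger protein with known antiviral activity. Counts of Parp12 in MRL/lpr replicates 1 to 3 were 3036, 3459 and 2863, and those in MRL/mpj replicates 1 to 3 were 2695, 2384 and 2433. The strains did not overlap, and this was the smallest rise of the 4 upregulated genes. The level was 68.9 ± 4.47 CPM (SD, n = 3) against 49.0 ± 3.05 CPM (SD, n = 3), and the log2 fold change was 0.49 (standard error 0.09, 95% interval 0.30 to 0.69, adjusted p = 0.00324).

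Parp11 (ENSMUSG00000037997, chr6:127446840-127494261, plus strand) encodes a transferase of the nuclear envelope. It was the least abundant of the 7 genes. Counts of Parp11 in MRL/lpr replicates 1 to 3 were 383, 482 and 363, and those in MRL/mpj replicates 1 to 3 were 712, 575 and 403. The MRL/mpj libraries were spread widely, with replicates 1 and 2 above all MRL/lpr libraries and replicate 3 below them after scaling. The level was 9.02 ± 1.09 CPM (SD, n = 3) against 11.0 ± 3.08 CPM (SD, n = 3). The log2 fold change was -0.29, with a 95% interval from -0.77 to 0.19 (adjusted p = 0.408). This interval is the widest of the 7 and includes changes in either direction. The value moved to -0.09 without MRL/mpj replicate 1 and to -0.49 without MRL/mpj replicate 3.

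Parp8 (ENSMUSG00000021725, chr13:116854820-117025537, minus strand) encodes a mono-ADP-ribosyltransferase of which little is known. Counts of Parp8 in MRL/lpr replicates 1 to 3 were 3754, 3267 and 2484, and those in MRL/mpj replicates 1 to 3 were 3152, 3225 and 3210. Here the MRL/lpr libraries lay on both sides of the MRL/mpj libraries, which were nearly equal. The level was 69.6 ± 10.2 CPM (SD, n = 3) against 62.5 ± 1.74 CPM (SD, n = 3). The log2 fold change was 0.15 (95% interval -0.09 to 0.40, adjusted p = 0.376). The value depended on single MRL/lpr libraries. Without MRL/lpr replicate 3 the log2 fold change was 0.26, with an adjusted p of 0.0451 from edgeR. Without MRL/lpr replicate 1 it was 0.045, with an adjusted p of 0.83 from edgeR.

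MRL/lpr replicate 3 had the lowest level among the MRL/lpr libraries for Parp14, Parp9 and Parp8 and the highest for Dtx3l. In that library a single gene took 6.38% of all counts, against 1.09% to 1.95% for the top gene of the other libraries. The 4 upregulated genes passed the test in each fit that left out 1 library.

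**Figure D3:**
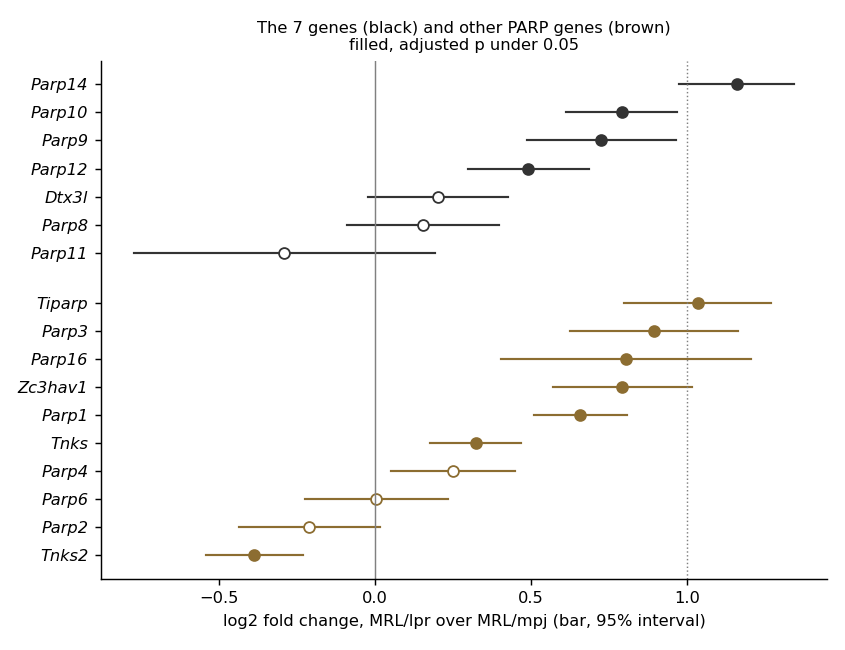
Log2 fold change of MRL/lpr over MRL/mpj microglia for the 7 genes (black) and the other 10 PARP genes tested (brown), with 95% intervals as bars. Filled points have an adjusted p under 0.05, the solid line marks no change and the dotted line a log2 fold change of 1. Parp14 and Tiparp lie beyond 1, and Tnks2 is the only gene shown that is filled to the left of 0.

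Promoter sequences from RefSeq (GRCm38.p6), each with 250 bases upstream and 50 bases downstream of an annotated start, were matched to 4 of the 7 genes: Dtx3l, Parp8, Parp11 and Parp12. Parp9, Parp10 and Parp14 had no entry in the table. The windows were searched on both strands for the core letters of the interferon-stimulated response element (ISRE), GAAANNGAAA, and of the gamma-activated site (GAS), TTCNNNGAA. Both are known elements of interferon-responsive promoters. The ISRE letters occurred in 3.44% and the GAS letters in 8.30% of all 32851 windows of the same length. The 7 genes gave 5 windows, since Parp11 has several starts in the table. Both motifs were found in 1 of them, that of the upstream start of Parp11, and neither was found in the other window of Parp11 or in those of Parp8, Parp12 and Dtx3l. The sequences below are shown as the window with the motifs, the window of the upregulated gene Parp12, and that of Dtx3l, which lies within Parp9. They run 5′ to 3′ on the strand of each gene and leave out annotated untranslated bases, and capitals mark the motif letters. For Dtx3l this leaves only the 71 bases furthest upstream in its window. That sequence therefore does not reach the annotated start at chr16:35939027, unlike the other sequences shown.
Parp11, chr6:127446590-127446839, plus strand: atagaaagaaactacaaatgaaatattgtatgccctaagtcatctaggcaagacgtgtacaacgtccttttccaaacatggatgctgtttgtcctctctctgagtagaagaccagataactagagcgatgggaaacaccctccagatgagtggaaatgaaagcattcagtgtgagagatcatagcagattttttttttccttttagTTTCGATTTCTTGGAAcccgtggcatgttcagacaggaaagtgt
Parp12, chr6:39118350-39118599, minus strand: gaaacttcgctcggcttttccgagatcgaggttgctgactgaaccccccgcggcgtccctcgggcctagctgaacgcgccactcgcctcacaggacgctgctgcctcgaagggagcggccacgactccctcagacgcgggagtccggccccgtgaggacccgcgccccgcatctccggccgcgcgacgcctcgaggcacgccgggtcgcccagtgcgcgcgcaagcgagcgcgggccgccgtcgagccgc
Dtx3l, chr16:35939207-35939277, minus strand: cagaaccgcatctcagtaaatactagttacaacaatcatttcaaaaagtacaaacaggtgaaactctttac

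In the upstream window of Parp11 the ISRE letters, TTTCGATTTC on this strand, lay 44 to 35 bases upstream of the start, and the GAS letters, TTCTTGGAA, lay 37 to 29 bases upstream and overlapped them. A match of letters is a description of the sequence and does not show binding, and the windows without a match say nothing of sites elsewhere.

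Levels of different genes were compared with the deposited FPKM values, which divide by gene length and depth. In MRL/mpj microglia, Parp12 at 11.4 ± 0.701 FPKM (SD, n = 3) and Parp10 at 10.6 ± 0.600 FPKM (SD, n = 3) were the most abundant, and their ranges overlapped. Parp9 at 7.26 ± 0.771 FPKM, Parp8 at 6.54 ± 0.180 FPKM and Dtx3l at 6.40 ± 0.524 FPKM came next, and each overlapped its neighbour in this order. Parp14 had 5.63 ± 0.0635 FPKM and Parp11 had 1.45 ± 0.404 FPKM, each apart from its neighbours.

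In MRL/lpr microglia the order was Parp10 at 16.9 ± 0.805 FPKM (SD, n = 3), Parp12 at 14.7 ± 1.10 FPKM, Parp14 at 11.6 ± 1.34 FPKM, Parp9 at 11.1 ± 1.26 FPKM, Dtx3l at 6.77 ± 0.371 FPKM, Parp8 at 6.71 ± 1.16 FPKM and Parp11 at 1.09 ± 0.147 FPKM. Parp14 and Parp9 overlapped, as did Dtx3l and Parp8, and the other neighbours did not. Parp14 thus stood at position 6 in MRL/mpj and at position 3 in MRL/lpr microglia. Among all genes tested, it moved from percentile 67.2 to percentile 82.6 of the FPKM values, while Parp11 stood at percentiles 41.4 and 38.4. Summed over the 7 genes, the MRL/lpr libraries had 69.28, 73.31 and 63.97 FPKM, each above the 48.52, 49.68 and 49.71 FPKM of the MRL/mpj libraries. Parp14 made up 15.7% to 17.6% of this sum for MRL/lpr and 11.2% to 11.5% for MRL/mpj.

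**Figure D4:**
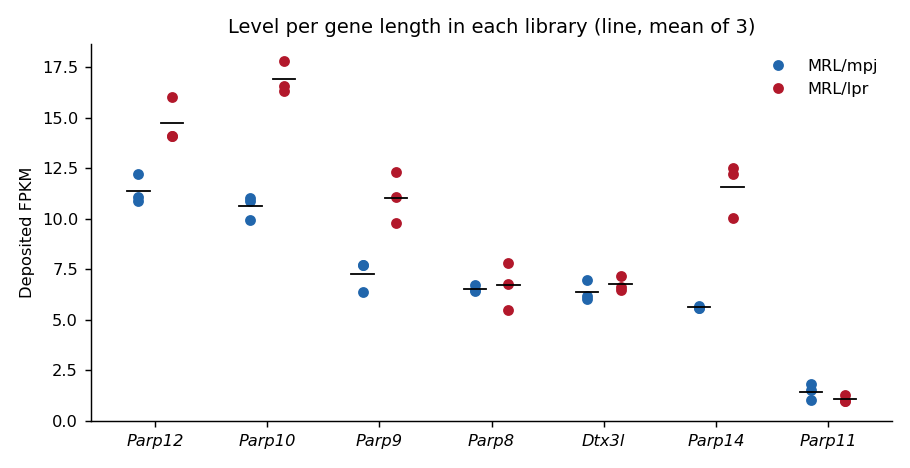
Deposited FPKM of the 7 genes in each MRL/mpj (blue) and MRL/lpr (red) library, in the order of their mean in MRL/mpj microglia, with lines at the mean of 3 libraries. Parp14 is next to last in the MRL/mpj libraries and reaches the level of Parp9 in the MRL/lpr libraries.

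The other 10 PARP genes tested included 6 that were higher and 1 that was lower in MRL/lpr microglia, with a median log2 fold change of 0.49. Tiparp and Parp16 are further enzymes of single ADP-ribose units. Tiparp (also known as Parp7), a target of the aryl hydrocarbon receptor, was counted 7113, 6909 and 5002 times in MRL/lpr replicates 1 to 3 and 3203, 3430 and 3797 times in MRL/mpj replicates 1 to 3. The strains did not overlap, and its log2 fold change, 1.03 (standard error 0.10, adjusted p = 0.000122), was the closest to that of Parp14. Parp16, an enzyme of the endoplasmic reticulum, rose by 0.80 on the log2 scale (adjusted p = 0.0111), and Parp3, a DNA repair enzyme, by 0.89 (adjusted p = 0.000677). Zc3hav1, the antiviral RNA-binding protein ZAP that belongs to the family but lacks activity, rose by 0.79 (standard error 0.10, adjusted p = 0.000445).

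Among the chain-forming enzymes, Parp1, the main DNA damage sensor of the family, rose by 0.66 (standard error 0.07, adjusted p = 0.000122), from 90.0 ± 3.39 to 142 ± 2.85 CPM (SD, n = 3 each). Parp2, its close relative, had a log2 fold change of -0.21 (adjusted p = 0.188). The tankyrases moved apart. Tnks rose by 0.32 (adjusted p = 0.00666) and Tnks2 fell by 0.39 (adjusted p = 0.00371) on the log2 scale. With scaling by library size only, the log2 fold change of Tnks was 0.20 and did not pass the test (adjusted p = 0.0779), nor did it from FPKM (0.20 and 0.17 with pseudocounts of 0.1 and 1, adjusted p = 0.125 and 0.123 from limma). The remaining PARP genes of the list, Parp4 and Parp6, are not counted here among the chain-forming enzymes. They did not pass the test, with log2 fold changes of 0.25 and 0.01.

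Of the 4 other Deltex genes, Dtx4 was higher, with a log2 fold change of 0.47 (adjusted p = 0.00101), and Dtx1, Dtx2 and Dtx3 did not pass the test. None of the 6 genes tested whose products remove ADP-ribose passed the test, with log2 fold changes from 0.06 for Parg to 0.62 for Macrod2. At an unadjusted p under 0.05 from edgeR, 2 of them, Adprh and Oard1, were higher, and DESeq2 called none. The 5 genes tested whose products bind ADP-ribose did not pass either, with log2 fold changes from -0.46 to 0.22. None of these had an unadjusted p under 0.05, and DESeq2 called none.

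Of 11 genes tested for the supply and use of NAD+, the substrate of the PARP enzymes, 2 were higher and 2 were lower, with a median log2 fold change of 0.17. The enzymes of the last step of NAD+ synthesis did not move together. Nmnat3, the mitochondrial form, was counted 0, 6 and 0 times in MRL/lpr replicates 1 to 3 and 159, 100 and 69 times in MRL/mpj replicates 1 to 3 (adjusted p = 0.003). Nmnat2 fell by 1.86 on the log2 scale (adjusted p = 0.00538), from 3.94 to 1.08 CPM. In the same libraries the neuron markers had log2 fold changes from -1.35 to -0.38, with 2 of 5 called lower. The part of neuronal RNA in the fall of Nmnat2 was not tested. The nuclear form Nmnat1 had a log2 fold change of 0.52 (adjusted p = 0.0303). It lost its call with scaling by library size only, from FPKM and in 5 of the 6 fits that left out 1 library. Bst1, a surface enzyme that consumes NAD+, had the largest increase of the list, with a log2 fold change of 2.61 (adjusted p = 0.000307). Nampt, the rate-limiting enzyme of NAD+ salvage, had a log2 fold change of 0.28 (adjusted p = 0.054).

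The interferon pathway was compared in the same fit. Of 13 signalling genes, 6 were higher and 1 was lower. Stat2, a transcription factor that carries the type I interferon signal, rose by 1.21 (standard error 0.12, adjusted p = 0.000126), close to the log2 fold change of Parp14. Its partner Irf9 rose by 0.64 (adjusted p = 0.00519), and Irf7, an interferon-induced regulator of interferon genes, by 2.86 (adjusted p = 4.66e-07). The kinase genes Jak1 and Tyk2 rose by 0.53 and 0.28, and the call of Tyk2 was lost with scaling by library size only, from FPKM and without MRL/mpj replicate 1 or 2. The receptor gene Ifngr1 fell by 0.76 on the log2 scale (adjusted p = 5.22e-05), from 396 to 234 CPM. Ifnar1, Ifnar2, Ifngr2, Jak2, Irf1 and Irf8 did not pass the test.

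All 15 interferon-stimulated reference genes were higher, and 13 of them passed a log2 fold change of 1. Their median log2 fold change was 1.52, with a range from 0.54 for Ifih1 to 5.20 for Ifi44. Parp12 lay below this range, Parp9 and Parp10 lay between its lowest members, Ifih1 and Bst2, and Parp14 lay below the median. These reference genes were chosen with their behaviour in these libraries already known, and are given for scale. Gbp3 and Ifit3, both antiviral effectors, had log2 fold changes of 2.98 and 3.30.

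**Figure D5:**
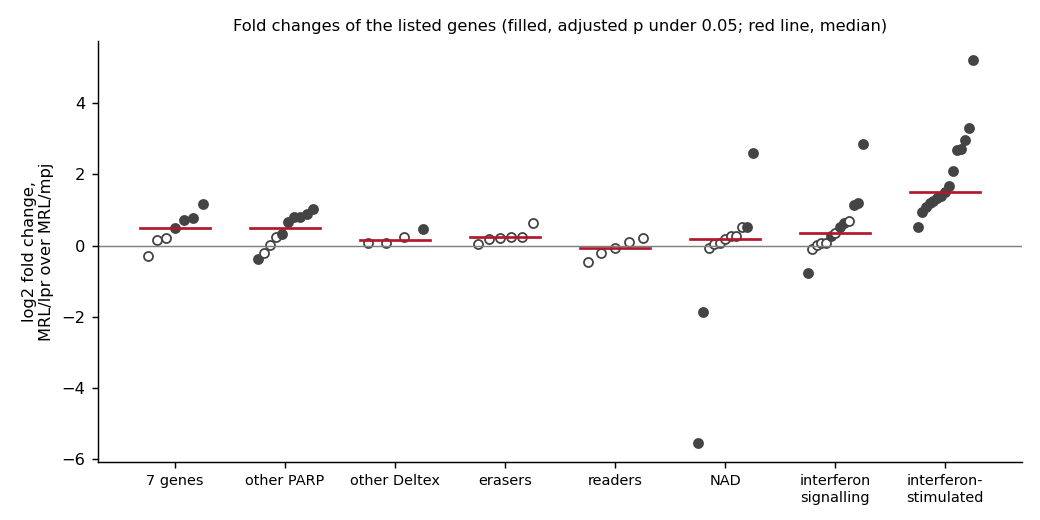
Log2 fold change of MRL/lpr over MRL/mpj microglia for each tested gene of the 7 and of the other lists, each in order of fold change. Filled points have an adjusted p under 0.05 and red lines mark the list medians, which are 0.49 for the 7 genes and 1.52 for the interferon-stimulated genes. The lowest point, Nmnat3, has 0 counts in some MRL/lpr libraries, so its position depends on the fit.

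Across the 6 libraries, the genes whose pattern was most like that of each gene were found among 13137 genes with a mean count of at least 100, by the root mean square difference of log2 CPM relative to the MRL/mpj mean. The nearest to Parp14 were Hspa1a, a heat shock gene with a near-identical copy whose reads may be shared, at 0.0261, and Btg2 at 0.0309. For Parp9 they were Bhlhe40 at 0.0540 and Slfn5, an interferon-induced gene, at 0.0663. For Parp10 they were Vps18 at 0.0357 and Siah2 at 0.0441, and for Parp12 Gm44686 at 0.0482 and Prps2 at 0.0505. For Dtx3l they were Edc3 at 0.0293 and Ass1 at 0.0303, for Parp8 Zcwpw1 at 0.0202 and Ddhd1 at 0.0345, and for Parp11 Ss18 at 0.0736 and Glrx2 at 0.0957. Among the 7 genes themselves, the closest pair was Parp9 and Parp10, at 0.0883, and the pair of Parp9 and Dtx3l was further apart, since the nearest of the 7 to Dtx3l was Parp8, at 0.212.

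The libraries held between 45481609 and 49846634 counts. All 10 microglia markers were detected and 2 of them were lower, at a summed 22503 to 25155 CPM in the MRL/lpr and 25833 to 26584 CPM in the MRL/mpj libraries. Within these markers MRL/lpr replicate 2 stood apart for Cx3cr1, counted 132706 times there and 10334 to 29349 times elsewhere. Markers of other cells also differed. T cell markers summed to 13.8 to 18.9 CPM in the MRL/lpr and 3.24 to 4.09 CPM in the MRL/mpj libraries, with 4 of 5 higher, NK cell markers to 10.1 to 10.2 against 2.86 to 4.07 CPM, with 3 of 5 higher, and plasma cell markers to 25.5 to 28.5 against 12.8 to 13.6 CPM, with 2 of 5 higher. The plasma cell marker Mzb1 was at 0 in all MRL/mpj libraries. Neutrophil markers were at 306 to 341 against 247 to 287 CPM (2 of 5 higher), monocyte markers at 72.0 to 79.8 against 80.7 to 87.4 CPM (2 of 5 higher, 1 lower) and endothelial markers at 1338 to 1511 against 1208 to 1251 CPM (1 of 5 higher). Choroid plexus and ependyma markers were lower in 4 of 5, at 350 to 366 against 1040 to 1124 CPM, neuron markers in 2 of 5, at 16.6 to 19.4 against 30.9 to 33.6 CPM, and astrocyte markers in 1 of 5, at 94.1 to 136 against 175 to 179 CPM. Border macrophage markers (47.2 to 49.4 against 45.9 to 54.0 CPM, 1 of 5 lower), oligodendrocyte markers (122 to 144 against 130 to 155 CPM, 1 of 5 lower) and B cell markers (9.19 to 10.5 against 8.42 to 9.995 CPM) had overlapping sums. Of the 4 B cell markers tested edgeR called none, 2 were higher at an unadjusted p under 0.05, and DESeq2 called 1. The mitochondrial share of counts was 3.06% to 3.49% for MRL/lpr and 5.84% to 6.38% for MRL/mpj. The part of these differences in the levels of the 7 genes was not tested.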

How the data were processed

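Microglia were isolated on a Percoll gradient with magnetic selection for CD11b, and RNA was sequenced from 3 libraries of each strain. The labels describe depletion of ribosomal RNA and a stranded total RNA kit, while the study's methods describe purified mRNA. The submitters' processing notes name cutadapt 1.9.3, HISAT2 2.0.4, Cufflinks, Cuffdiff 2.2.1 and the GRCm38 build. The counting tool, its strand setting and the annotation are not given in the sources used here. The authors deposited raw read counts per gene, not normalized, and FPKM values per library, which divide the counts by gene length and depth. Counts per library ran from 45481609 to 49846634. Counts pile up at 4 (in MRL/lpr replicate 1, 1234 genes had 4 counts, against 377 with 3 and 254 with 5). The cause was not tested, and low counts may rest on fewer reads than their size gives. No libraries held identical values.

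Symbols, positions and exon lengths came from GENCODE M21 (GRCm38), which matched 55141 of 55401 identifiers. The comparison of the strains used R 4.3.3 and edgeR 4.0.16: filterByExpr (minimum count 10, minimum total 15), TMM scaling, glmQLFit with robust dispersions and glmQLFTest, with no covariates and Benjamini-Hochberg adjustment over 19554 genes. Standard errors were taken as the absolute log2 fold change over the square root of F. Promoters came from RefSeq. The alternatives were DESeq2 1.42.0, other scalings, filters and dispersions, glmTreat, limma 3.58.1 on log2(FPKM + 0.1) and log2(FPKM + 1), counts divided by 4, a replicate block, and leaving out each library. The steps were tested on simulated data. The 7 genes and all lists were chosen with earlier results of these data known. Named are the 7 genes, up to 4 genes with the smallest adjusted p of each other list and those the text needs, and the 2 genes closest in pattern to each of the 7. A gene that this rule covers is not reported here.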

Additional observations from a re-analysis of the deposited data

How the results depend on the processing

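Across all 17 alternatives, Parp14, Parp10, Parp9 and Parp12 stayed higher in MRL/lpr microglia, with log2 fold changes of 0.92 to 1.23, 0.62 to 0.82, 0.54 to 0.79 and 0.34 to 0.54, and passed the test in each alternative but glmTreat. Against a minimum log2 fold change of 1, glmTreat left 616 of 3950 genes called and 0 of the 7 genes. Parp10 (0.79), Parp9 (0.73) and Parp12 (0.49) lay under this minimum and so could not pass, by its construction. Parp14 (log2 fold change 1.16) lay above it but did not pass either, with an adjusted p of 0.227 from glmTreat. Leaving out 1 library gave 2803 to 4334 called genes and 4 to 5 of the 7 genes higher. The fifth was Parp8 without MRL/lpr replicate 3 (log2 fold change 0.26, adjusted p = 0.0451 from edgeR), in a range of 0.045 to 0.26 over these fits. Dtx3l, Parp8 and Parp11 passed in no other alternative, with log2 fold changes of 0.07 to 0.27, 0.02 to 0.26 and -0.49 to -0.09. The difference in the Dtx3l to Parp9 ratio ran from -0.65 to -0.43 on the log2 scale without 1 library. Scaling by library size only moved the median log2 fold change of all genes from -0.01 to -0.13, and left the 4 calls in place. Of 442 values for 26 other named genes, 401 kept their direction and side of the threshold, 34 no longer passed and 7 reversed, all of them of Parp6: -0.0013 with DESeq2, -0.12 with library size only, -0.11 and -0.084 from FPKM with pseudocounts of 0.1 and 1, and -0.044 to 0.084 over the fits without 1 library. The cause was not tested. The 34 values that no longer passed include those of Parp1, Parp3 and Tnks from glmTreat. Their log2 fold changes of 0.66, 0.89 and 0.32 lay under its minimum of 1, so they could not pass, by its construction. Same-numbered libraries of the strains did not deviate together (correlations of -0.041, -0.020 and -0.033 over genes). These values do not show whether such libraries were prepared as pairs. A replicate block called 3063 genes and the same number of the 7, 4. Nmnat1 and Tyk2 lost their calls under it.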
